A study of Mus musculus with 6 samples.

Results

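H3K27ac and YAP were mapped by chromatin immunoprecipitation sequencing in mouse stomach, and the 3 libraries labelled normal, 1 of H3K27ac and 2 of YAP, are described here. They were chosen by their label alone, and summits on chromosomes 1 to 19 and X were kept. They hold 26081 of the 184671 summits of all 6 libraries of the series: 22386 of H3K27ac, 1574 of YAP normal 1 and 2121 of YAP normal 2. The cells were gastric corpus epithelial cells, released with EDTA, fixed and frozen, and never cultured. The normal mice were WT. The tumor-labelled libraries, 2 of YAP for 1 tested comparison and for distances and 1 of H3K27ac for distances only, came from CluCreERT2;R26rtTA;HA-Yap+ mice, in which tamoxifen activates Cre in cells that express Clu and doxycycline then induces HA-tagged Yap through the transactivator at R26. All mice, normal ones included, had 2 mg tamoxifen on each of 5 days and then doxycycline food (14 days), per the labels' protocols. The labels give no age, and nothing in them ties the 2 libraries of a group to different animals, so the spread between the YAP libraries may be technical.

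YAP is a coactivator without a DNA-binding domain of its own. It is held in the cytoplasm when the Hippo kinases Lats1 and Lats2, which Stk3 and Stk4 activate, phosphorylate it. In the nucleus it binds DNA through TEAD factors, mostly at enhancers. H3K27ac is an acetylated histone found at active promoters and enhancers. The corpus gland of the stomach holds mucous pit and neck cells, acid-secreting parietal cells and enzyme-secreting chief cells, and YAP is known for its part in growth and repair of such epithelia.

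The libraries did not all match their labels in one respect. Peak names of the H3K27ac library and of YAP normal 1 carry the word cre, whereas those of YAP normal 2 carry the word Clu_Yap, which the tumor H3K27ac and YAP tumor 2 lists also carry, and YAP tumor 1 carries cre. The labels were kept, and YAP normal 1 and YAP normal 2 are given separately throughout. The score of a summit is the authors' deposited −log10 of either a q-value or a p-value (no source used here says which) and ranks summits within 1 list only. Its median was 13.4 for H3K27ac, with a range of 1.73 to 363, 5.58 for YAP normal 1, with a highest score of 379, and 5.60 for YAP normal 2, with a highest score of 385. The number of reads behind each summit is unknown, and a list from a shallower library can be shorter for that reason alone. Intervals of shares are 95% Wilson intervals and cover counting error only.

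The promoters that carry the main contrast are shown first, as 300 bases from 250 before to 50 after a RefSeq gene start (GRCm38.p6), printed 5′ to 3′ along the gene. Capitals mark the letters GGAATG, the core of the TEAD motif, and TTCCGG, the core of the ETS motif, on either strand (CATTCC and CCGGAA in reverse). In the first 4 promoters a YAP normal 2 summit lay inside the printed window and an H3K27ac summit lay within 1 kb of the gene start. Flcn, which encodes folliculin, was named for its H3K27ac score, and the other 3 were chosen after their values were seen, as high-scored summits of YAP normal 2.
Flcn, chr11:59809990-59810289 (minus strand): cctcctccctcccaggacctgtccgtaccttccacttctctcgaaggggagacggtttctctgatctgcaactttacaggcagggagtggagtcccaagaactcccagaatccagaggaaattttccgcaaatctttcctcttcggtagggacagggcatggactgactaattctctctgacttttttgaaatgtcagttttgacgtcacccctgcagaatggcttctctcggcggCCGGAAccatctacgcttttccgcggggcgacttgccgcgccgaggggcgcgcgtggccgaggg
Denr, chr5:123907025-123907324 (plus strand): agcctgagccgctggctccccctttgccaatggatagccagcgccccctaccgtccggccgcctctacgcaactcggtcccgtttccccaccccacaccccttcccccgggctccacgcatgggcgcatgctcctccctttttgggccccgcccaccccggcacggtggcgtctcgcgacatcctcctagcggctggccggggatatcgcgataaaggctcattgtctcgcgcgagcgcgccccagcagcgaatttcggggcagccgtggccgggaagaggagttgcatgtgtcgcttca
Stx16, chr2:174076052-174076351 (plus strand): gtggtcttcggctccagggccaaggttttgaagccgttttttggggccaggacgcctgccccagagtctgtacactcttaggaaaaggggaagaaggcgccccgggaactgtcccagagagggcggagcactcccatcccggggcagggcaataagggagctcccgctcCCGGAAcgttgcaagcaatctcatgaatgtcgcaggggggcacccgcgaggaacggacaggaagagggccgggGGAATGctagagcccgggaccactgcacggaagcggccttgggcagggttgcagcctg
Kmt2a, chr9:44881240-44881539 (minus strand): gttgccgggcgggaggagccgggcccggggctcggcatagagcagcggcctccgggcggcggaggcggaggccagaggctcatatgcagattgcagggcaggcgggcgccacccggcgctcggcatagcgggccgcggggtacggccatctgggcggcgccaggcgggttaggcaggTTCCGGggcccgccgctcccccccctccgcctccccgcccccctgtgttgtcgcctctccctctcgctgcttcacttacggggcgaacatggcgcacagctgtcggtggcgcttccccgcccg

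The YAP normal 2 summit lay 38 bp into the gene at Flcn (score 8.02), 49 bp before the start of Denr (24.7), 10 bp before that of Stx16 (23.0) and 190 bp before that of Kmt2a (33.4). The H3K27ac summit nearest to the gene start lay 56 bp into Flcn (score 306), 153 bp into Denr (41.4), 215 bp into Stx16 (21.7) and 339 bp into Kmt2a (14.97). At Kmt2a another H3K27ac summit was nearer to the YAP summit, 238 bp from it (score 8.57). These windows were rich in CpG, with 20 CpG at Flcn, 31 at Denr, 18 at Stx16 and 36 at Kmt2a. The ETS letters occurred once each at Flcn, Stx16 and Kmt2a, and the TEAD letters once, at Stx16.

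The other 4 promoters belong to genes of the gastric epithelium that had H3K27ac within 1 kb of their start and no YAP summit in the window: Gkn1 (a secreted pit cell protein), Cblif (gastric intrinsic factor, a chief cell product in mice), Atp4a (the catalytic subunit of the acid pump) and Hnf4a (an endodermal transcription factor).
Gkn1, chr6:87350866-87351165 (minus strand): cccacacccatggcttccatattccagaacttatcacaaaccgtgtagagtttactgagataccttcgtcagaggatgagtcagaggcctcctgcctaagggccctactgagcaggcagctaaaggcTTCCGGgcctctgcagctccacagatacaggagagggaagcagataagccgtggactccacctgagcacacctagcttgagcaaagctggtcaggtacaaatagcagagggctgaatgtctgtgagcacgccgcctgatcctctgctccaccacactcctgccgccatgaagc
Cblif, chr19:11747309-11747608 (plus strand): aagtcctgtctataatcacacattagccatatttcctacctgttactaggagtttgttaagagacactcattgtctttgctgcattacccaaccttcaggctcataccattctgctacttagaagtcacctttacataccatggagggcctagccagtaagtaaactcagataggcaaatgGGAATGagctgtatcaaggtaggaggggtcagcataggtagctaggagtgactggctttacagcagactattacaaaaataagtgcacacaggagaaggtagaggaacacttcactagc
Atp4a, chr7:30711959-30712258 (plus strand): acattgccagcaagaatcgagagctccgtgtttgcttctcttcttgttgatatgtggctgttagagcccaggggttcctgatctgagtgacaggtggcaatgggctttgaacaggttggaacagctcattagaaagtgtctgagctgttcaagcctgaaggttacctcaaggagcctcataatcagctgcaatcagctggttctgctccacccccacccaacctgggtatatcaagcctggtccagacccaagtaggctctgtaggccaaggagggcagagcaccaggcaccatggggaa
Hnf4a, chr2:163506607-163506906 (plus strand): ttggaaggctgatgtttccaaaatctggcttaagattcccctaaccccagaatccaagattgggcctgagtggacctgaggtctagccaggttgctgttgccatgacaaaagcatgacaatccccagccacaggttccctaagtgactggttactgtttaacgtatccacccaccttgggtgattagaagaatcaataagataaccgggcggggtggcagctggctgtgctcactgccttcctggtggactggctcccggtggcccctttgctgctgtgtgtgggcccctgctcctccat

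The H3K27ac summit lay 319 bp into Gkn1 (score 11.4), 207 bp into Cblif (18.0), 939 bp into Atp4a (15.8) and 170 bp into Hnf4a (52.7). Their windows held fewer CpG than the first 4: 7 at Gkn1, 0 at Cblif, 2 at Atp4a and 4 at Hnf4a. These are examples and all lie below the median of 9 CpG (quartiles 6.5 and 16.5) of 35 windows of gastric cell genes with H3K27ac. The ETS letters occurred once, at Gkn1, and the TEAD letters once, at Cblif.

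H3K27ac in normal corpus epithelium lay in about equal parts at genes and away from them. Of its 22386 summits, 51.5% (50.8 to 52.2%) were within 1 kb of a start or end of a protein-coding gene, against 7.37% after the summits were shifted by 10 kb. The share within 1 kb of a gene start, on the chromosomes the promoter table covers, was 51.7%. That table holds starts of only 17274 of the 21631 genes, so gene-start shares here and below can be too low. Summits closer than 2 kb made 18066 elements, of which 14191 held 1 summit, 3474 held 2 and 401 held 3 or more, with 6 at most. Strong summits were more often at genes than weak ones: the gene-end share was 77.7% in the best-scored decile (median score 85.7) and 19.1% in the lowest-scored decile (median score 3.64).

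Around gene starts the mark sat on the downstream side. Among the 10986 H3K27ac summits within 2 kb of a gene start, the median position was 192 bp into the gene, 73.7% were downstream and 56.5% were between 150 and 700 bp downstream. Only 16.5% were within 150 bp of the start itself, the stretch where promoters are usually free of nucleosomes.

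**Figure D1:**
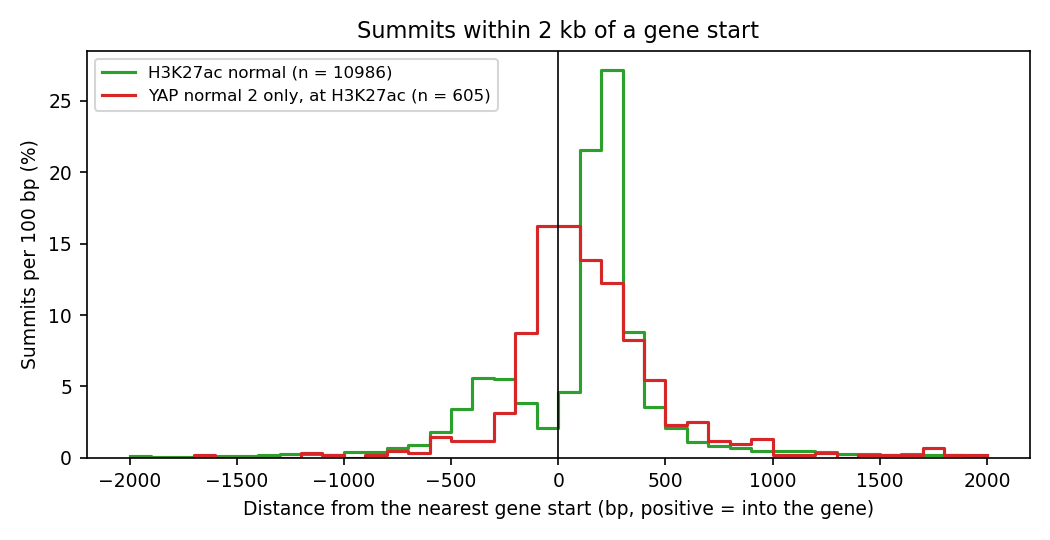
The plot of summit positions around gene starts gives distance from the nearest gene start in bp (x, positive into the gene) against the percentage of summits per 100 bp (y), as a green line for H3K27ac (n = 10986) and a red line for YAP normal 2 summits that YAP normal 1 lacks and that lie at H3K27ac (n = 605). H3K27ac has a dip at the start and a peak downstream of it, and the YAP line is highest at the start.

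By single genes, the best-scored H3K27ac summits fell into 2 kinds. At Flcn (score 306), Pnrc1, a nuclear receptor coactivator (279), and Eif1, a translation initiation factor (275), the summit lay 56, 570 and 227 bp from a gene end. The 4 best-scored summits of the list instead lay 7591 to 29432 bp from the nearest gene: 363 near Rpusd4, 328 near Mrgprd, 313 near Tmem196 and 312 near Gm45871. At each of these 4 places both YAP libraries also had a summit, described with the YAP sites below. Further genes among the first 15 were Nfyc (297), Tex14 (290), Pecr (281), Arl4d (281), Ly6c2 (273), 4930467E23Rik (268), Eapp (266) and Snx6 (265), with summits 6055 to 43478 bp from a gene end, those of Nfyc and Tex14 inside the gene. Summits over 50 kb from any gene end are left out of this naming. A gene named with a summit beyond 1 kb is only the nearest one within 50 kb and need not be its target.

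Genes with many H3K27ac summits were mostly others; 4930467E23Rik was among the first 15 by both measures. Nr2f2, a nuclear receptor, had 14 assigned summits with a best score of 36.7. Sik1, a kinase induced by cAMP, had 13 (63.5), Ezr, the ezrin gene of the parietal cell apical membrane, 11 (56.7), and the corepressor genes Irf2bp2 and Irf2bpl 11 each (48.0 and 46.9). Mrps23 had 11, and Deptor, an inhibitor of mTOR, Zfp710, Pxylp1, Rreb1 and Bcor had 10 each. Nr2f2, Sik1, Ezr, Irf2bp2, Irf2bpl, Mrps23, Zfp710, Pxylp1, Rreb1 and Bcor had no assigned YAP summit in either library, and Deptor had 1 of YAP normal 1. Of all genes, only 2.76% had an assigned YAP normal 1 summit and 6.03% a YAP normal 2 summit, so most genes had none. Sfi1 (13 summits), Gm17019 (12), 4930467E23Rik (10) and Gm10354 (10) stood apart, with 3, 3, 5 and 1 YAP normal 1 summits and 11, 5, 7 and 7 YAP normal 2 summits.

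H3K27ac marked most genes of the gastric gland cells. Of all 21631 genes, 48.6% had H3K27ac at an end (a summit within 1 kb of the gene's start or end) and 54.9% had an assigned summit within 50 kb. Against these shares, 11 of 14 pit cell genes had one within 1 kb and 14 of 14 had an assigned one. For chief cells these counts were 10 and 11 of 14, for parietal cells 12 and 19 of 20, and for neck cells and the metaplastic lineage that shares their genes (SPEM) 6 and 9 of 12. Beyond 1 kb of the ends, 16 of 20 parietal, 9 of 14 pit, 9 of 14 chief and 4 of 12 neck cell and SPEM genes had an assigned summit, against 22.7% of all genes. The median best score of genes with an assigned summit was 12.3 for pit, 34.5 for chief, 22.8 for parietal and 12.4 for neck cell and SPEM genes, against 27.1 over all genes with one, so most pit and neck cell genes were marked by weak summits. All 3 of the chief cell genes without an assigned summit encode secreted enzymes: Lipf (gastric lipase), Pga5 (a pepsinogen) and Chia1 (a chitinase).

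Among pit cell genes the best scores were those of Foxq1, a transcription factor needed for gastric mucin (41.2), and the claudin Cldn18 (36.5). Sult1c2 had 32.7, Psca 29.1 and the trefoil peptide Tff1 25.6. The mucin gene Muc5ac had 4.88. Among parietal cell genes the best were carbonic anhydrase Car2 (93.8), the muscarinic receptor Chrm3 (60.6) and Ezr (56.7). The potassium channel Kcnq1 had 56.6, Clic6 48.4 and the nuclear receptor Esrrg 44.1. The acid pump subunits Atp4b and Atp4a had 21.0 and 15.8. Among chief cell genes Xbp1, a regulator of the secretory apparatus, had 156, and the secretory vesicle GTPase Rab3d 80.3. Lrig1, also on the stem and progenitor list, had 48.7, Creb3l1 47.8, Spdef 43.6 and Agr2 34.5. Lower were Cblif with 18.0, Bhlha15 with 16.9 and Pgc, progastricsin, with 8.40. The library is of bulk epithelium, so the score of a listed gene cannot be credited to that cell type alone. Among neck cell and SPEM genes the best scores were those of Mal2 (53.6), Sox9 (36.2), Gpx2 (16.6), Clu (14.97) and Cd44 (12.4); Muc6 had 6.20, and Tff2, Gkn3 and Aqp5 had no assigned summit.

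The defining markers fixed for each cell type were all members of the gene lists used here, so they are no separate support for those counts. Of all genes, 54.9% had an assigned summit. All 4 pit markers, 4 parietal, 3 chief and 4 epithelial markers (Epcam, Cdh1, Krt8, Krt18) had an assigned H3K27ac summit, with best scores of 4.88 to 66.1. Of the 2 neck cell markers only Muc6 had one. None of the 3 squamous markers (Krt5, Krt14, Trp63) had one; the forestomach, which borders the corpus, has a squamous lining. Of the 3 immune markers only Ptprc had one, at a score of 3.41, and of the 4 stromal markers Pecam1 (13.7) and Col1a1 (7.19) had one. Over the whole lists, 1 of 18 immune, 6 of 16 stromal, 0 of 12 squamous, 0 of 16 endocrine and tuft cell, 2 of 12 intestinal and 2 of 12 liver and pancreas genes had H3K27ac within 1 kb of an end. Of all genes, 48.6% had it there. Among the stromal genes with a mark were Vim (10.2), Tie1 (7.86), Col1a2 (7.55) and Acta2 (7.02), so low scores of other cell types were present; their part in the results was not tested. The share of endocrine and tuft cells in the sample and the mark per cell cannot be told apart in such bulk lists.

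**Figure D2:**
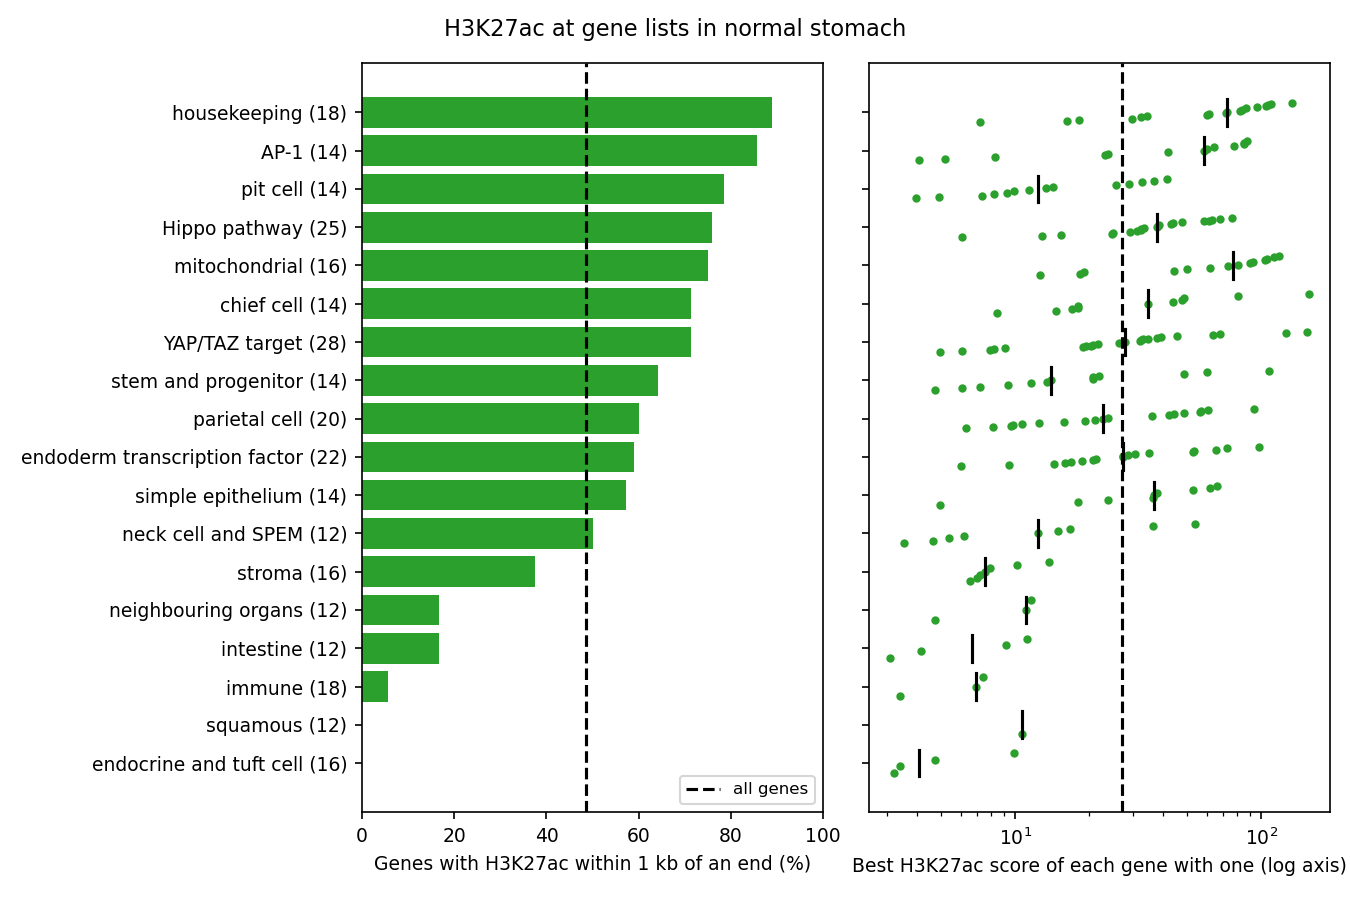
The plot of gene lists gives for each of 18 lists (number of genes in brackets) the percentage of genes with H3K27ac within 1 kb of an end (left) and the best assigned H3K27ac score of each gene that has one (right, log axis, black tick = median of the list). Dashed lines are the values over all genes (48.6% and 27.1); gastric lists lie above the line on the left, and immune, squamous, endocrine and intestinal lists lie below it.

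Many transcription factor genes of the foregut endoderm had several assigned summits. Of 22 such genes, 13 had H3K27ac within 1 kb of an end, against 48.6% of all genes. An assigned summit was found for 18 of 22, against 54.9%, and 3 or more for 11 of 22, against 8.6%. Having 3 or more was not particular to them: it held for 11 of 20 parietal, 5 of 14 chief, 3 of 14 pit and 1 of 12 neck cell and SPEM genes. The best scores were those of Grhl2 (98.4), Klf5 (72.7), Klf4 (65.7), Gata4 (53.3, 8 summits), Hnf4a (52.7) and Gata5 (34.9). The median best score, 27.4, was near that of all genes. The intestinal factor Cdx2 and the factors Pdx1, Onecut2 and Nr5a2 had none. The AP-1 list held the stress-responsive Fos and Jun families together with Maf and Batf genes and Atf3. It was marked at 12 of 14 genes, with a median best score of 58.8, against 27.1 over all genes with an assigned summit. Jund had 87.3, Mafk 85.4, Maff 85.2, Jun 77.9, Fosb 64.4 and Fos 60.4. The cells were released with EDTA before fixation, and the part of that step in the AP-1 values was not tested. Housekeeping genes were marked at 16 of 18 (median best score 72.4, led by Ywhaz with 134, Ubb with 110, Eef1a1 with 107 and Actb with 105) and mitochondrial genes at 12 of 16 (median 76.9, led by Uqcrc1 with 118 and Uqcrc2 with 113). Their summits ranked high: 10 of 18 housekeeping and 8 of 16 mitochondrial genes had one in the best-scored decile, against 9.72% of all genes. Simple epithelial genes were marked within 1 kb of an end at 8 of 14 and stem and progenitor genes at 9 of 14, against 48.6% of all genes. On the simple epithelial list Krt18 had 66.1, Epcam 62.1 and Cdh1 52.8, whereas Cldn3, Cldn4, Cldn7, Krt20 and Tjp1 had no assigned summit. The best stem and progenitor scores were those of Axin2 (108), Lgr4 (60.5) and Lrig1 (48.7). Lgr5 had 13.5 and Mki67 had 4.71.

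Most genes of the Hippo pathway carried H3K27ac in normal corpus. It lay within 1 kb of an end in 19 of 25, against 48.6% of all genes. Among the kinases and their scaffolds, Lats2 had a best score of 68.1, Taok1 63.0, Wwc2 61.4, Nf2 58.6, Mob1a 47.6, Mob1b 43.8, Stk3 33.3, Wwc1 32.4, Taok2 29.3, Sav1 24.7, Taok3 12.8 and Stk4 6.09. For the coactivators and their partners, Yap1 had 38.1, Wwtr1 (TAZ) 24.9, Tead3 42.9, Tead1 31.2, Tead4 15.3 and the TEAD cofactor Vgll4 38.5 with 8 summits. Ptpn14 (37.8) and Limd1 (32.5) were marked too. The median best score of the list was 37.8. Amot, Tead2, Tjp1 and Lats1 had no assigned summit, although Lats1 had one within 1 kb of an end that lay nearer to another gene and Tjp1 had 3 inside the gene.

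Known YAP and TAZ target genes also carried the mark, at 20 of 28. Frmd6 (154), Amotl2 (126), Lats2 (68.1), Arhgap29 (63.7), Strn (45.6), Dock5 (39.0), Ptpn14 (37.8), Amotl1 (34.7), Crim1 (33.2), Wwc1 (32.4), Gadd45a (32.1), Nt5e (28.0), Asap1 (26.4), F3 (20.7), Arhgef17 (20.4) and Gadd45b (18.8) led the list. The matricellular genes Ccn2 (CTGF) and Ccn1 (CYR61), the targets most often used as readouts, had 21.7 and 19.4, each with a summit 243 or 212 bp from a gene end. Lower scores were those of Axl (9.12), Myof (8.23), Ajuba (7.91), Tgfb2 (6.10) and Nuak2 (4.92). Ankrd1, Fjx1, Foxf2, Igfbp3 and Rbms3 had no assigned summit, although Rbms3 had 1 inside the gene. The median best score of the list, 28.0, was close to the 27.1 of all genes.

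YAP summits of the 2 normal libraries differed in where they lay. In YAP normal 1, 25.1% (23.0 to 27.3%) were within 1 kb of a normal H3K27ac summit, against 2.41% after the shift by 10 kb. In YAP normal 2 the share was 61.8% (59.7 to 63.9%), against 4.05%. Near gene starts too the libraries differed: 0.987% of YAP normal 1 and 31.2% of YAP normal 2 summits were within 1 kb of one, against 1.97% and 2.84% after the shift. Chromosome X held 9.66% of YAP normal 1, 4.48% of YAP normal 2 and 2.31% of H3K27ac summits. With 1 library each, these differences have no replicate check, and they run along the word in the peak names.

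In both libraries the share with H3K27ac fell with the score. In the best-scored decile it was 93.0% in YAP normal 1 and 94.8% in YAP normal 2, at median distances of 12 and 19 bp. In the lowest-scored decile it was 7.64% and 42.9%. The gene-start share of YAP normal 2 went the other way, from 3.92% in the best-scored decile to 47.3% in the seventh and 34.0% in the lowest. The best-scored YAP summits of both lists lay beside H3K27ac summits and away from listed gene starts. Most of them were sites found in both libraries, described below. A share of signal there that does not depend on the antibody was not tested.

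**Figure D3:**
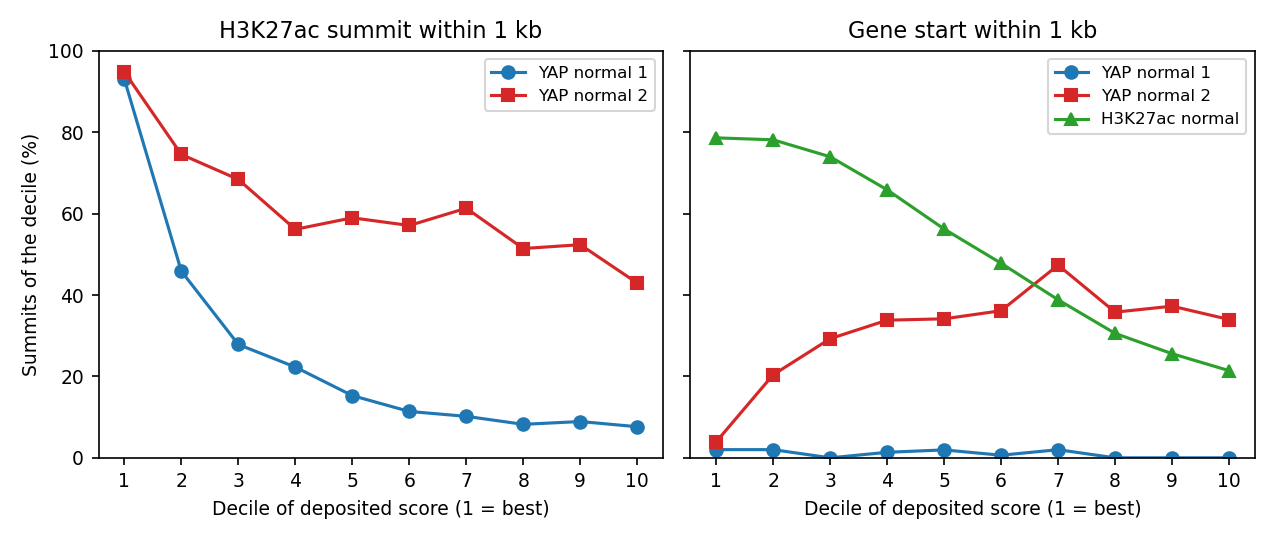
The plot of shares by score gives, for each decile of a list by deposited score (x, 1 = best), the percentage of summits within 1 kb of a normal H3K27ac summit (left) and of a gene start (right); blue is YAP normal 1, red YAP normal 2 and green H3K27ac. Both YAP lines start above 90% on the left and part below it, and on the right the YAP normal 2 line rises from 3.92% while YAP normal 1 stays at 2.01% or less.

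A site of both libraries was a YAP normal 1 summit matched one to one to a YAP normal 2 summit within 200 bp. There were 446, which is 28.3% (26.2 to 30.6%) of YAP normal 1 and 21.0% of YAP normal 2, against 0.318% and 0.141% after the shift. Of them 321, or 72.0% (67.6 to 75.9%), had H3K27ac within 1 kb, at a median distance of 21 bp, and 9 of the 425 on covered chromosomes (2.12%) were within 1 kb of a gene start. At 203 sites (45.5%), a summit of all other lists of the series, tumor H3K27ac and both tumor YAP libraries included, lay within 100 bp as well. The sites of both libraries made up 94.3% of the best-scored decile of YAP normal 1 and 88.7% of that of YAP normal 2.

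The leading sites were the same in both libraries and coincided with the strongest H3K27ac summits. The site near Rpusd4 (chromosome 9, 29445 bp from the gene) had scores of 379 in YAP normal 1 and 385 in YAP normal 2, with the H3K27ac summit 13 bp away. The sites near Gm45871 (289 and 307), Tmem196 (280 and 370) and Mrgprd (294 and 294) had the H3K27ac summits of rank 4, 3 and 2 at 16, 24 and 6 bp. Tumor H3K27ac lay 6 to 39 bp and tumor YAP summits 3 to 24 bp from these 4 sites. Signal at the same positions in an input library was not analysed here, so a share of it that does not depend on the antibody was not tested.

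Further sites of both libraries followed the same form. Filip1l had scores of 197 and 278, Wls, the carrier of Wnt proteins, 209 and 275, Gm14496 206 and 256, Zc3h7a 151 and 271, Ly6c2 153 and 225, Tcstv3 148 and 169, Cdk8 116 and 228, Adgre5 121 and 160, Lars2 102 and 187, Dpy19l2 107 and 158, and Pak3 118 and 115. Brox, Peak1, Tmem125, Cldn34d, Tcp10c, Gm39469, Smo, Dop1b, Lama1 and E030030I06Rik completed the 25 best among sites within 50 kb of a gene end; 219 of the 446 sites (49.1%) were farther away and name no gene, some of them with scores above those of most of the 25. H3K27ac lay 1 to 163 bp from each of the 25, and at 24 of them, all but Cldn34d, both tumor YAP lists had a summit within 66 bp. Smo encodes the signal transducer of the Hedgehog pathway and Cdk8 a kinase of the Mediator complex. None of the 25 was on the list of known YAP targets. That list held only 28 of all 21631 genes, so the lack of overlap says little.

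**Figure D4:**
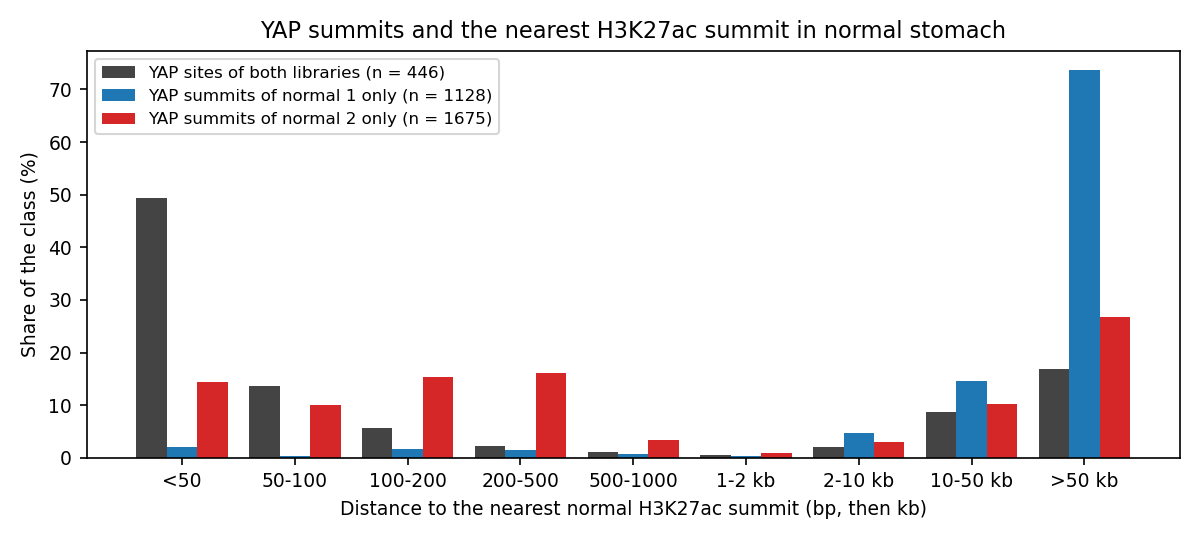
The plot of distances gives the distance from a YAP summit to the nearest normal H3K27ac summit in 9 ranges (x) against the percentage of the class (y), with grey bars for the 446 sites of both libraries, blue for the 1128 summits of YAP normal 1 only and red for the 1675 of YAP normal 2 only. The grey bar is highest under 50 bp (49.3%), the blue bar beyond 50 kb (73.7%), and red bars spread over 0 to 500 bp.

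The other sites of both libraries had no H3K27ac within 1 kb. Among those within 50 kb of a gene end, the 10 best lay near Zfp825 (40.5 and 52.3), Rusf1 (40.1 and 21.7), Sspn (24.3 and 23.9), Klf10 (28.3 and 16.6), Grk5 (10.6 and 28.3), Dcdc2a (9.72 and 41.1), Abhd6 (13.5 and 17.4), Olfr806 (13.9 and 15.7), Gm20939 (9.19 and 24.7) and Vmn2r83 (16.3 and 12.6). At Klf10, an early response factor, the nearest normal H3K27ac summit was 7615 bp away and a tumor H3K27ac summit 2 bp away. At Grk5 and Abhd6 the normal H3K27ac summit was 8966 and 24756 bp away and the tumor one 1 and 4 bp away.

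Summits of YAP normal 1 only lay mostly over 50 kb from a gene end and from normal H3K27ac. A summit inside a long gene can be that far from its ends, and gene density was not measured. Of 1128, 6.56% (5.26 to 8.16%) had normal H3K27ac within 1 kb, against 1.33% after the shift, 73.7% were over 50 kb from any, 61.7% were over 50 kb from a gene end and 11.4% were on chromosome X. Their median score was 4.92. The highest score of the class was 278, and most summits had no gene within 50 kb. Among those with one, the best-scored lay near Deptor (27.2), Esp18 (25.04), Aadac (21.8), Slc25a21 (18.9) and Tdpoz1 (16.0), all chosen here after their values were seen. Only Aadac and Tdpoz1 of these 5 had normal H3K27ac within 1 kb, 363 and 145 bp away. Tumor H3K27ac, a longer list of 66532 summits, lay within 1 kb of 48.6% of the class, against 4.26% after the shift. This share was 89.7% of YAP normal 2 only (6.75% after the shift) and 87.4% of sites of both libraries (7.40%). Olfactory and vomeronasal receptor genes, silent outside sensory neurons and counted after values were seen, had an assigned YAP normal 1 summit in 39 of 1463, close to the 2.76% of all genes, and YAP normal 2 in 17 of 1463, against 6.03%. H3K27ac was within 1 kb of an end in 3 of these 1463.

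Summits of YAP normal 2 only lay at promoters more often than those of the other classes. Of 1675, 59.1% (56.7 to 61.4%) had normal H3K27ac within 1 kb and 38.9% (36.5 to 41.3%) were within 1 kb of a gene start, against 0.548% in YAP normal 1 only. The H3K27ac summits beside them had a median score of 41.5, against 20.004 beside sites of both libraries and 6.12 beside summits of YAP normal 1 only. The median distance was 130 bp, larger than the 21 bp of sites of both libraries. At gene starts, 44.3% of the 605 such summits at H3K27ac were within 150 bp of the start, against 16.5% of H3K27ac summits, and their median position was 103 bp into the gene against 192 bp. The highest score of the class was 250, and summits over 50 kb from a gene end, 25.4% of the class, name no gene. Among those within 1 kb of a gene end, high scores were those at Kmt2a, a histone H3K4 methyltransferase (33.4), Rad54l2 (30.3), Wdfy1 (29.5), Otud7b (28.2), Denr, a translation reinitiation factor (24.7), Dpy19l4 (24.4), Stx16 (23.0) and Rab33b, a Golgi GTPase (23.0), all within 127 bp of a gene end and chosen after their values were seen. Summits near Zfp825 (61.2) and Aadac (35.3) lay 36072 and 5568 bp from a gene end, the latter beside the YAP normal 1 summit named above. Gdf15, a stress cytokine, had 21.8 at 548 bp.

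The promoters with a summit of YAP normal 2 only inside the 300 base window and H3K27ac within 1 kb, 296 windows of 280 genes, were rich in CpG and ETS letters and not in TEAD letters. Overlapping windows can hold the same summit, as those of Lzic and Nmnat1 do, so the 296 windows are not all separate sites. The letters TTCCGG, on either strand, were in 48.6% of them, against 29.4% of the 12357 windows with H3K27ac and 4892 of all 32619 windows. The TEAD core GGAATG was in 11.1%, against 11.6% and 14.6%. The median number of CpG was 30, against 22 and 7, and GC content was 66.8%, against 62% and 53%. The GC box GGGCGG was in 69.6% (66.6% and 35.9%), the NRF1 motif in 14.9% (10.7% and 4.63%), CCAAT in 21.6% (36.8% and 37.6%) and TATAAA in 1.35% (6.12% and 13.7%). These windows hold more G and C than the rest, so letters made of G and C occur more often in them for that reason too, and no test was made of the difference. In 35 windows of 28 gastric cell genes with H3K27ac, median CpG was 9 and TTCCGG was in 11.4%, as was GGAATG. A match is a description of the letters, not a binding site.

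H3K27ac summits with a YAP normal 2 summit were among the stronger ones. Of the best-scored decile of H3K27ac, 18.5% had a YAP normal 2 summit within 1 kb, falling to 2.23% of the lowest decile; for YAP normal 1 the shares were 2.77% and 1.16%. At gene starts the median H3K27ac score was 44.9 at the 742 summits with YAP normal 2 only and 22.1 at the 10497 without YAP. Farther than 1 kb from a listed gene start it was 16.0 at 375 summits and 7.65 at 9802, and 18.1 at the 304 with YAP of both libraries. These distal groups can hold summits at genes whose start is not listed. Only 75 distal H3K27ac summits had YAP normal 1 only, with a median score of 6.12. In both places, 93.3% of H3K27ac summits had no YAP summit within 1 kb.

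**Figure D5:**
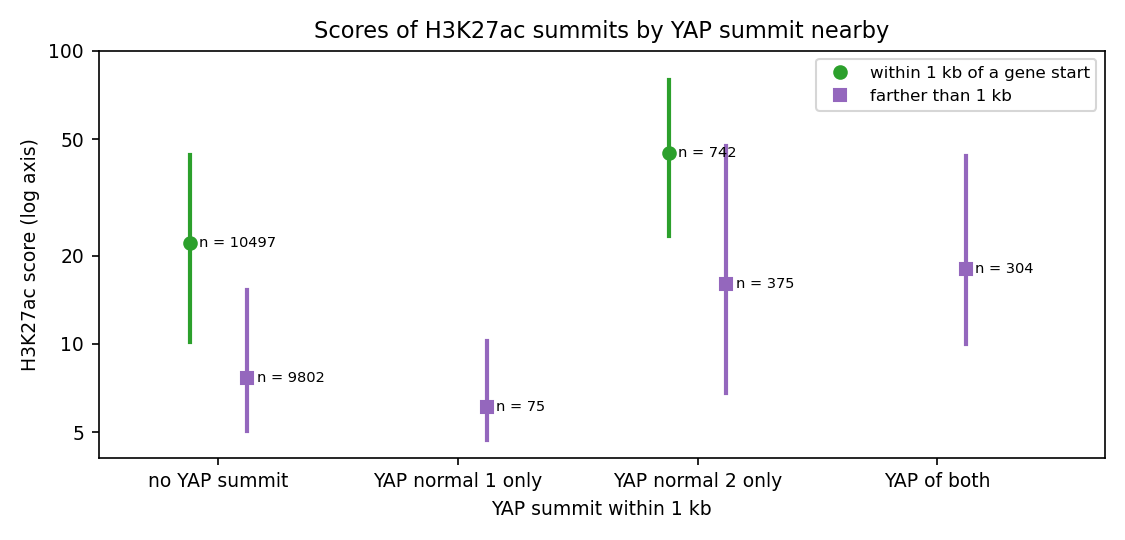
The plot of H3K27ac scores gives the median (marker) and quartiles (ends of the bar) of the deposited score on a log axis, for H3K27ac summits within 1 kb of a gene start (green circles) and farther away (purple squares), by the YAP summit within 1 kb; groups under 20 summits are not drawn. Summits with YAP normal 2 only have the highest median, 44.9 at gene starts, and distal summits with YAP normal 1 only the lowest, 6.12.

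Few of the listed genes had a YAP summit. Assigned YAP normal 1 and YAP normal 2 summits were found for 2.76% and 6.03% of all genes, and sites of both libraries for 0.957%. Of 28 YAP target genes 2 had YAP normal 2: Frmd6, whose best summit, 24388 bp from an end, was part of a site of both libraries (8.09 and 5.50) 52050 bp from H3K27ac and which had a second summit at H3K27ac within 1 kb of an end, and Asap1, with a summit 323 bp from an end (4.24). Ccn1, Ccn2, Amotl2 and the other targets had none in either library. Of 25 Hippo genes, Yap1 had a YAP normal 2 summit 399 bp from an end (7.33), 65 bp from H3K27ac, and Vgll4 had 1 summit of each library (6.45 and 3.93), at different places. At H3K27ac, 2 of 28 targets and 2 of 25 Hippo genes had an assigned YAP normal 2 summit, against 4.41% of all genes. These counts are close to the shares of all genes, and 0 of 14 AP-1 genes had one in either library.

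Among gland cell genes, Chrm3, the acetylcholine receptor of parietal cells, had the only site of both libraries, 41054 bp from the gene (11.98 and 30.7). An H3K27ac summit lay 49 bp or less from it, a tumor H3K27ac summit 22 bp and tumor YAP summits 62 and 29 bp. It was thus among the 203 sites with a summit of every list within 100 bp. As at the leading sites, a share of signal that does not depend on the antibody was not tested. YAP normal 2 alone was assigned to Kcnq1 (4.39), Xbp1 (4.84), Rab3d (5.20), Grhl2 (4.33), Klf4 (3.25), Gata4 (2 summits, best 6.88), Muc6 (2, best 5.04), Idh2 (4.40) and, among housekeeping genes, Ppia (10.1), Tbp (8.69) and Ywhaz (3.65). At Kcnq1, Xbp1, Rab3d, Klf4, Ppia and Tbp the summit was within 500 bp of a gene end and within 168 bp of H3K27ac. At Cldn18 and Vsig1, pit cell genes, single summits of YAP normal 1 (5.68) and YAP normal 2 (5.10) lay 3913 and 11194 bp from H3K27ac. Of all genes, 3.66% had a YAP normal 2 summit within 1 kb of an end and 0.0832% a YAP normal 1 summit, and no listed gene had the latter.

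The design allowed 1 comparison between groups with replicates: the share of YAP summits within 1 kb of a normal H3K27ac summit in normal and tumor libraries. It was 25.1% and 61.8% in the normal and 44.5% and 34.8% in the tumor libraries, so the groups overlapped. The means were 43.5% ± 26.0 (SD, n = 2) and 39.6% ± 6.86 (SD, n = 2), a difference of 3.81 percentage points (exact two-sided permutation test, p = 1, where 2 against 2 cannot go below 0.333). The tumor lists were longer, with 38227 and 53831 summits. When each list was cut to its 1574 best-scored summits, the shares were 25.1% and 66.5% in the normal and 91.5% and 92.8% in the tumor libraries, and the groups no longer overlapped (normal minus tumor −46.4 points, exact p = 0.333). With the libraries grouped by the word in their peak names in place of the label, the difference was −13.5 points (exact p = 0.667).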

How the data were processed

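Per the submitters' processing notes, reads were processed with Bowtie2 and MACS2 on GRCm38 (mm10). Versions, cut-offs and any control library are not given in these sources. The deposited files are 1 list of 1 bp summits per library, called per library, whose score is the authors' −log10 of a q-value or p-value. Depth is unknown. Comparisons of positions, tested first on simulated positions, used numpy 2.4.6, scipy 1.17.1 and pandas 2.3.3 under Python 3.11.15, with matplotlib 3.10.9 for figures. Gene ends came from a RefSeq table of 21631 protein-coding genes, and gene starts and sequences from 32619 RefSeq promoters (GRCm38.p6), which lack chromosome 18. These promoters cover 17274 of the genes, so a summit at a gene without one can count as away from gene starts. The YAP normal 2 summit at Dpy19l4 lay 34 bp from a gene end but 524370 bp from the nearest covered start. Each summit was assigned to the nearest gene end within 50 kb. All 297 entries of 18 gene lists (289 genes) matched by symbol.

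The members and lists were chosen with earlier results of these data known. Named were up to 6 genes per list by best H3K27ac score, all YAP target and Hippo genes (1 is not reported here), and the leading genes and sites (15 per list, 25 and 10 for sites of both libraries). Groups followed the labels. Alternatives were other windows, score minimums, merging, gene starts, equal list lengths, regrouping and leaving out libraries. Summits on chromosome Y and other sequences were left out.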

Additional observations from a re-analysis of the deposited data

Results flagged for a closer look

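Summits outside chromosomes 1 to 19 and X appear in no comparison above, and their number was above the 3 that a count of 0 allows in every normal-labelled library. On chromosome Y there were 188 summits of H3K27ac, 80 of YAP normal 1 and 20 of YAP normal 2, which is 0.83%, 4.75% and 0.916% of the lists. On other sequences, mostly unplaced ones, there were 77, 31 and 43, of which the unplaced sequence JH584304 alone held 26, 17 and 22.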

How the results depend on the processing

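Of 42 alternatives, 21 kept the direction or value, 16 moved a share beyond its 95% interval and 5 turned the sign of the 1 group difference. The H3K27ac share at gene ends was 43.4% within 500 bp, 56.9% within 2 kb, 67.6% for scores of at least 10 and 50.8% after merging. The count of marked genes stayed within 1.5 times. The H3K27ac share of YAP normal 1, YAP normal 2 and sites of both libraries was 22.6%, 45.6% and 68.6% within 200 bp, 17.1%, 51.3% and 55.6% for H3K27ac scores of at least 10, and 36.5%, 68.5% and 80.3% for YAP scores of at least 5. Without the sites of both libraries, an alternative added after seeing the data, it was 6.56% for YAP normal 1 and 59.1% for YAP normal 2. The shared part of YAP normal 1 was 39.3% for YAP scores of at least 5 and 32.6% within 500 bp. The causes of these moves were not tested.

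The difference between normal and tumor libraries, 3.81 points, was −46.4 at equal list length, −13.5 with libraries grouped by peak-name word (cre against Clu_Yap) and −6.49 without the sites of both libraries, added after seeing the data; the cause was not tested. Leaving out 1 library at a time gave −14.6 (without YAP normal 2) to 22.2 (without YAP normal 1), and −1.05 without YAP tumor 2, with no test. With the replicate number as a block the difference was again 3.81 (exact sign-flip p = 1); with 1 value per library, pairing could not be checked. Depth is unknown, so a missing summit was not detectable here rather than absent.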
